A study of Mus musculus with 6 samples.

Results

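A set of 10 mouse genes whose products tune Notch signalling or carry its signal into the nucleus were followed through 5 lists of E2A binding sites (peaks) from chromatin immunoprecipitation and sequencing (ChIP-seq). They were chosen by function, though with earlier results of these data known. They are the Fringe genes Lfng, Mfng and Rfng, the inhibitor genes Numb and Numbl, the ligase gene Mib1, the DNA-binding factor gene Rbpj and the coactivator genes Maml1, Maml2 and Maml3. Every peak that a deposited table annotates to one of them was taken, at any distance. Of the 10 genes, 8 had at least 1 peak, and the lists together name 12140 genes. The series mapped E2A, the E12 and E47 proteins made from the Tcf3 gene, in neural stem cells grown from C57BL/6J E12.5 embryos and kept dividing with 20 ng/ml each of FGF-2 and EGF. There were 3 wild-type libraries (wt replicates 1 to 3), 1 from E12-/- cells (E12KO) and 1 from E47-/- cells (E47KO), and an input library that is not analysed here. All cells were fixed in the same way and precipitated with the same antibody against E2A, and the labels do not say which E2A forms it recognises. The labels do not say how the knockouts were made or whether the wt libraries came from separate embryos. Peak lists do not measure transcription, so the labelled cell type could not be checked.

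Notch receptors are cut after they bind a ligand on a neighbouring cell, and the freed inner part joins RBPJ on DNA together with a Mastermind-like (MAML) coactivator to switch on genes such as Hes5. Fringe enzymes add a sugar to the receptor and so change which ligands activate it. MIB1 is the ubiquitin ligase that drives uptake of the ligand in the sending cell, and NUMB and its relative NUMBL are adaptors that hold Notch signalling down in the cell that inherits them. In the embryonic brain this pathway keeps neural stem cells dividing and delays neuron formation.

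The lists of wt replicates 1, 2 and 3 held 6814, 12772 and 24194 peaks, that of E12KO 25229 and that of E47KO 22176. The lists give no read totals, so depth is unknown, and each knockout has 1 library, so no test between genotypes was made. Of the peaks, 15, 15 and 28 were annotated to the Notch genes in the wt lists (19.3 ± 7.51, SD, n = 3, replicates in order), while E12KO had 24 and E47KO 25. Both knockout numbers lay inside the wt range, and the 3 longest lists held more of these peaks than the other 2. They made up 0.220%, 0.117% and 0.116% of the wt lists, 0.0951% of the E12KO list and 0.113% of the E47KO list.

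A total of 7 genes, Lfng, Mfng, Numbl, Mib1, Rbpj, Maml2 and Maml3, had a peak in every list. Numb had 1 peak each in wt replicates 2 and 3 and in E47KO, and Rfng and Maml1 had none in any list. A peak of wt replicate 1 thus named 7 of the 10 genes, against 17.5% of the 21900 protein-coding genes of a RefSeq table. For wt replicate 2 it was 8 of 10 against 27.8%, for wt replicate 3 it was 8 against 42.8%, for E12KO 7 against 45.1% and for E47KO 8 against 40.7%. A wt consensus region, meaning overlapping wt peaks from at least 2 of the 3 lists, was annotated to 8 of the 10 genes, against 27.6% of protein-coding genes. Within 10 kb of a start site 7 of the 10 had one, against 16.7%, and Rbpj was the gene whose consensus region lay farther out. With wt replicate 3 left out and both other wt lists required, 4 had one within 10 kb. That setting leaves 4263 consensus regions over all genes, against 12322. The share of protein-coding genes under it was not computed. The genes were chosen with earlier results of these data known and are not independent replicates, and these shares carry no test.

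Merging overlapping peaks of all 5 lists gave 35 regions at these genes out of 32693 in all. Of the 35, 7 were in all 5 lists (20.0%, against 12.7% of all regions) and 3 in 4 lists (8.57%, against 21.9%). Another 11 were in 3 lists (31.4%, against 20.7%), 4 in 2 (11.4%, against 16.2%) and 10 in 1 list alone (28.6%, against 28.4%). The 7 regions found everywhere were 1 each at Lfng, Mfng, Numbl, Mib1 and Rbpj and 2 at Maml2. The 10 found once were split over all 5 lists, with 2 in wt replicate 1, 1 each in wt replicates 2 and 3, and 3 each in E12KO and E47KO. Over all genes, the regions found once numbered 843, 1030 and 2529 in wt replicates 1 to 3, 3141 in E12KO and 1739 in E47KO.

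**Figure D1:**
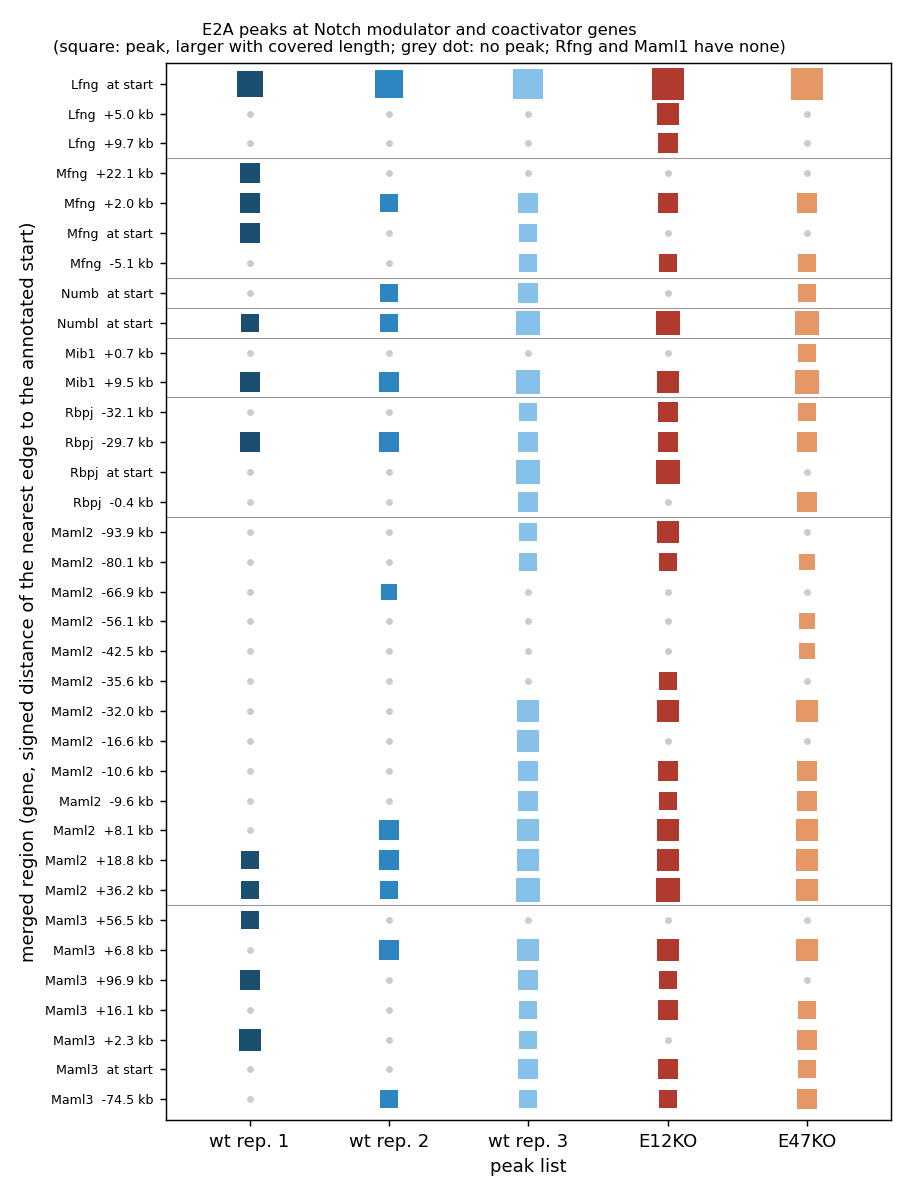
Presence of the 35 merged regions (rows, named by gene and by the distance in kb from the region's nearest edge to the annotated start site, negative upstream) in the 5 peak lists (columns). A coloured square is a peak, drawn larger where more base pairs are covered, and a grey dot is no peak; 7 rows are filled in all 5 columns, and most gaps fall in wt replicates 1 and 2, the shortest lists.

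Peaks covered an annotated start of Lfng, Mfng, Numbl, Numb and Maml3, and of internal transcripts of Rbpj, in at least 2 lists each. The 250 bases before a RefSeq start (GRCm38) are given for 5 of these genes, shown because E2A binds the E-box, spelled CANNTG, and because these genes differ in whether the window holds one. Capitals mark each CANNTG, a pattern that reads the same on both strands. RefSeq gives 3 starts for Numb, of which the one farthest upstream is shown, and 2 for Rbpj, both inside the RefSeq gene, of which the first is shown. The lists use the older mm9 build, so the place of these windows within the peaks was not checked.
Lfng, plus strand, chr5:140607091-140607340: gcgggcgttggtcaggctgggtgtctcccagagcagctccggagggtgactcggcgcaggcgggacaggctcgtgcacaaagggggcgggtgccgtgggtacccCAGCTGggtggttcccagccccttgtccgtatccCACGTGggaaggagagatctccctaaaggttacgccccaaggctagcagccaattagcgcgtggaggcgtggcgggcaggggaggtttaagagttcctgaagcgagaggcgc
Numbl, plus strand, chr7:27258511-27258760: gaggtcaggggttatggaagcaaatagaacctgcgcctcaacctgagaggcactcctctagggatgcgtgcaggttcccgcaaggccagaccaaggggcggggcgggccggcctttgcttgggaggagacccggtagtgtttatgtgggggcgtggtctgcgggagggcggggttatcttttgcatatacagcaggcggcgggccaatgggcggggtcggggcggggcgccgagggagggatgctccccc
Numb, minus strand, chr12:83921935-83922184: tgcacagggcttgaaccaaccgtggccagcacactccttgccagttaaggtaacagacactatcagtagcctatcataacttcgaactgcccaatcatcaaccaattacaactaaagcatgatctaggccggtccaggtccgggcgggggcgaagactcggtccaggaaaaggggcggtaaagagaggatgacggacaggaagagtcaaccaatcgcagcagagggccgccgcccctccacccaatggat
Maml3, minus strand, chr3:52105007-52105256: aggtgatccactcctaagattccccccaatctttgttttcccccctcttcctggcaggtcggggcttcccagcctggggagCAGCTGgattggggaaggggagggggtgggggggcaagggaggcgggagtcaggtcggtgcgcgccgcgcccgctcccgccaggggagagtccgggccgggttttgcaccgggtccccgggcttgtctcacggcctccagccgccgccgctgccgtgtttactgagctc
Rbpj, plus strand, chr5:53590096-53590345: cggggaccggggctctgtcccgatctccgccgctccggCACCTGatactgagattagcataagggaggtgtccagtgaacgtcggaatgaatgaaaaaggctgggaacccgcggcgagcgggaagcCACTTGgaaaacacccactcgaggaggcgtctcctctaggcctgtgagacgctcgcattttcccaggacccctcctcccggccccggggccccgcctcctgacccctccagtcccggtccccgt

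The Lfng window holds CAGCTG starting 146 bases before the start and CACGTG at 112 bases. The Maml3 window holds a single E-box, CAGCTG at 169 bases. In the Rbpj window they are CACCTG at 212 bases and CACTTG at 124 bases, while the Numb and Numbl windows hold none, although peaks covered both annotated starts in some lists. Mfng and Mib1 have no promoter entry, so no window is shown for Mfng. The 8 genes with an entry include Rfng and Maml1, which have no peak. Over the 12 RefSeq starts of these 8 genes, 8 windows hold CANNTG, against 66.2% of all 32851 promoter windows of this length. CAGCTG is in 2 of the 12, against 4271 of the 32851, and CAGGTG or its reverse complement CACCTG in 3 of 12 against 17.2%. The RBPJ core TGGGAA, or TTCCCA on the other strand, is in 5 of 12 against 21.6%: 2 copies each in the windows of Lfng and of the first Rbpj start and 1 each at Maml3, the other Rbpj start and 1 of the 2 Maml2 starts. The Rbpj windows overlap by 110 bases, and the copy at the other start (205 bases before it) is the same site as the TTCCCA 65 bases before the first, so these 2 of the 5 windows share a copy. The Lfng copy at 108 bases shares letters with the CACGTG E-box. Such matches describe letters and not bound sites.

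Lfng, the Fringe gene expressed in dividing progenitors of the embryonic brain, had the widest single peaks of these genes in wt replicates 2 and 3 and in both knockouts. In wt replicate 1 the gene had 4 separate peaks on chromosome 5 (mm9): over the start of the long transcript (141082974 to 141083475), 2 in its first intron (141084639 to 141085045 and 141085469 to 141085824) and over the start of a shorter transcript (141086870 to 141087667). The authors' fold enrichment, the ChIP signal over the peak caller's background, was 9.89, 5.27, 8.20 and 11.7 in that order, against a median of 7.48 over the whole list. In wt replicate 2 there were likewise 4 peaks in this stretch. In wt replicate 3 and E47KO the start peak stood alone and the other 3 had run together, as peaks of 3882 bp and 3909 bp, the 8th widest of wt replicate 3 and the 14th widest of E47KO. In E12KO 1 peak of 5796 bp, from 141082498 to 141088293, spanned all of it and was the 6th widest of that list. The bases covered by Lfng peaks were 2063, 3002 and 4660 in wt replicates 1 to 3, 7591 in E12KO and 5135 in E47KO. The 2 knockouts thus covered more than any wt list, and the median peak width was also larger in wt replicate 3, E12KO and E47KO (549, 616 and 550 bp) than in wt replicates 1 and 2 (432.5 and 420 bp); the part of that difference in the Lfng values was not tested. E12KO alone also listed 2 peaks beyond the gene's end, at 141092617 to 141093625 and at 141097316 to 141098101, the second in the 3′ UTR of another transcript.

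Mfng, which encodes the manic Fringe enzyme, had 1 site common to all lists. It lay in the first intron on chromosome 15, and the wt replicate 1 peak spanned 78601261 to 78601798 with an 11.7-fold enrichment. The peaks there measured 538, 277 and 778 bp in the wt lists, 527 bp in E12KO and 536 bp in E47KO. A peak over the Mfng start was listed in wt replicate 1 (78603729 to 78604275, 8.73-fold) and wt replicate 3 (78603835 to 78604151), and in neither wt replicate 2 nor either knockout. The nearest listed peak to it was then the intron site, 2074 bp away in wt replicate 2, 2003 bp in E12KO and 2037 bp in E47KO. Another site lay 5.1 kb upstream, in intron 16 of a neighbouring gene, where wt replicate 3, E12KO and E47KO had a peak and wt replicates 1 and 2 had none. A peak of wt replicate 1 that lay 22.1 kb downstream of the start (7.48-fold) was in no other list. Of all wt replicate 1 peaks, 843 (12.4%) overlapped no peak of the other 4 lists. The last Fringe gene, Rfng, was named by no peak, and neither of its neighbours in the RefSeq gene order, Hmga1b and Gps1, was named either.

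Numb had a peak at its start on chromosome 12 in 3 lists. The peaks of wt replicate 2 (85262612 to 85262879) and wt replicate 3 (85262115 to 85262875) covered the start, and that of E47KO (85262331 to 85262791) ended 17 bp downstream of it. Wt replicate 1 and E12KO had no peak there, and their nearest peaks, annotated to the acyl-CoA thioesterase genes Acot1 and Acot2, were 89656 bp and 64991 bp away. The Numb peaks measured 268, 761 and 461 bp, against list medians of 420, 549 and 550 bp. E12KO and 1 of the 3 wt lists therefore lacked the same site. Numbl had a peak at its start on chromosome 7 in every list. It measured 380 bp in wt replicate 1 (28042854 to 28043233, 5.34-fold), 365 bp in wt replicate 2, 1141 bp in wt replicate 3, 1558 bp in E12KO and 1755 bp in E47KO. In the first 2 lists the peak ended upstream of the start, by 547 and 581 bp, and in the other 3 it covered the start. Wt replicate 3 listed another peak of 248 bp at 1400 bp upstream, in the last exon of the adjacent gene, which the wider E47KO peak also touched.

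Mib1 had 1 site in all 5 lists, in the first intron about 10 kb from the start on chromosome 18. The wt replicate 1 peak spanned 10735662 to 10736176 (5.54-fold), and the site measured 515, 659 and 1289 bp in the wt lists, 869 bp in E12KO and 1355 bp in E47KO. Its nearest edge was 9532 bp from the start in wt replicate 3 and 10039 bp in wt replicate 1, so whether Mib1 counts as bound within 10 kb depends on the list. E47KO alone had a Mib1 promoter peak, 315 bp wide and 694 bp downstream of the start.

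Rbpj, the gene of the DNA-binding partner of all Notch receptors, had its one site common to every list far upstream. This intergenic peak on chromosome 5 lay 29.7 kb before the first annotated start and spanned 53916656 to 53917270 in wt replicate 1. Its width was 615, 511 and 685 bp in the wt lists, 567 bp in E12KO and 663 bp in E47KO, with both knockouts inside the wt range. In wt replicate 1 it had a fold enrichment of 21.6 and a −log10 q of 79.2, at the 94.2th percentile of that list by fold. A neighbouring peak about 32 kb upstream was in wt replicate 3, E12KO and E47KO only. Near the internal starts of shorter Rbpj transcripts, wt replicate 3 had 2 peaks, one spanning 53980283 to 53981919 and one 53982314 to 53982822. E12KO had a peak at the first of these (53980142 to 53981890) and E47KO at the second (53982240 to 53982731). Each knockout's nearest peak to the one it lacked was within 350 bp (350 bp in E12KO, 321 bp in E47KO), and wt replicates 1 and 2 had neither.

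**Figure D2:**
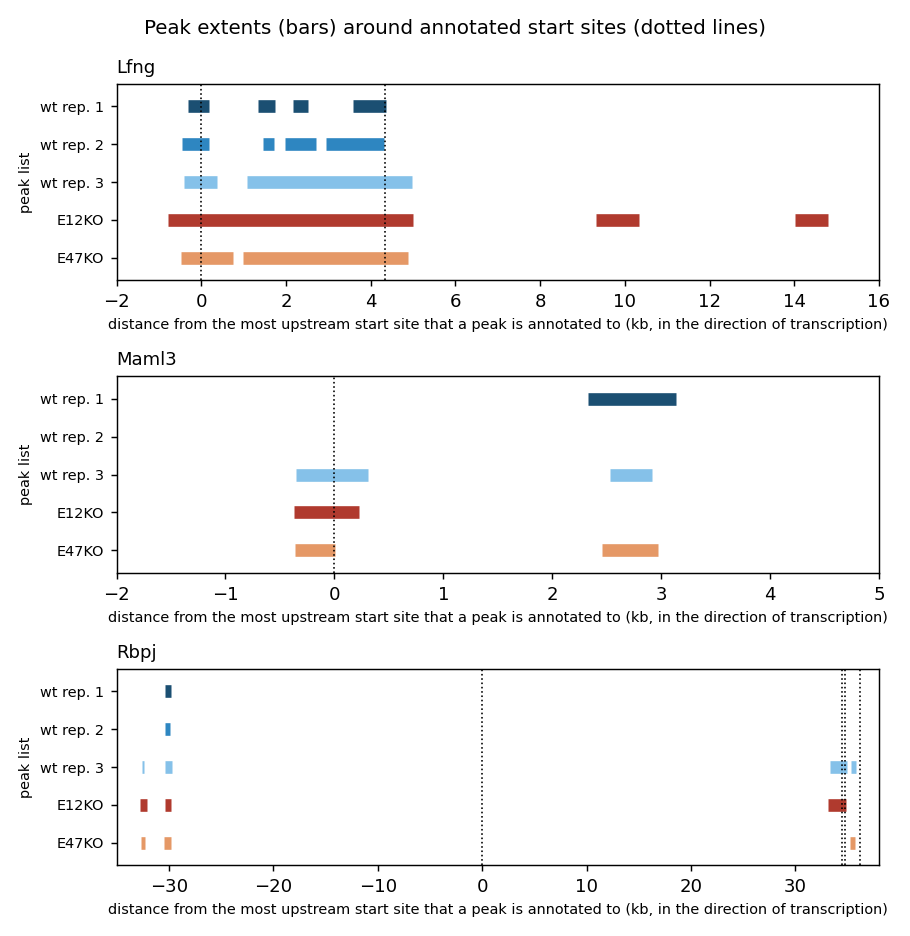
Extent of each peak (bars) in the 5 lists around the annotated starts (dotted lines) of Lfng, Maml3 and Rbpj, against the distance in kb from the most upstream of those starts in the direction of transcription. At Lfng the 4 peaks of wt replicates 1 and 2 are joined into 1 peak of 5796 bp in E12KO, at Maml3 the site near 2.5 kb is missing in wt replicate 2 and E12KO, and at Rbpj the site 29.7 kb upstream is present in all 5 lists.

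Among the Mastermind-like genes, Maml1 had no peak in any list. Its neighbours in the RefSeq gene order were named: Ltc4s by a peak 14.9 to 15.0 kb upstream of its start in 4 lists (all but wt replicate 1), and Canx by a promoter peak in E12KO and E47KO only. Maml2 had the most, with 2, 4 and 9 peaks in wt replicates 1 to 3 and 9 each in E12KO and E47KO, in 13 merged regions. Of those, 6 were intronic and 7 intergenic, upstream of the start that the deposited tables use. The intronic regions held a peak in 2, 3 and 6 cases in wt replicates 1 to 3, in 5 in E12KO and in 5 in E47KO. The intergenic ones held a peak in 0, 1 and 3 cases in the wt lists and in 4 in each knockout, and none was in 2 wt lists. The gene model in those tables is 89.5 kb long, while the RefSeq gene on GRCm38 is 413.0 kb long with a farther upstream start, so the intergenic label rests on the shorter model. Both Maml2 sites present in all lists were intronic on chromosome 9. The one in intron 1 spanned 13486065 to 13486404 in wt replicate 1 (6.53-fold). The one in intron 2 spanned 13503813 to 13504224 in wt replicate 1 (9.52-fold), and its peaks measured 412, 429 and 1257 bp in the wt lists, 1563 bp in E12KO and 1054 bp in E47KO. A further intron 1 site, spanning 13475553 to 13476061 in wt replicate 2, was in every list except wt replicate 1. Shared by wt replicate 3 and both knockouts were 2 more intronic sites, 10.6 and 9.6 kb before the start of the shorter transcript, and 2 intergenic ones, 80.1 and 32.0 kb before the first start; one at 93.9 kb was in wt replicate 3 and E12KO.

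Maml3, the longest of the genes at 417.4 kb, had 7 regions and no site common to all 5 lists. Its strongest peak was also the strongest of the whole group. It lay on chromosome 3 about 2.5 kb inside the gene and spanned 51905790 to 51906598 in wt replicate 1, with a fold enrichment of 33.1, a −log10 q of 116 and a pileup (coverage height) of 92, which ranked 145th of 6814 by fold. Wt replicate 3 and E47KO listed it at 388 bp and 517 bp, narrower than the 809 bp of wt replicate 1, and wt replicate 2 and E12KO did not list it. Of the 145 peaks of wt replicate 1 at or above that fold, 19 were missing in wt replicate 2 and 6 in E12KO, and this was the 1 peak missing in exactly those 2 lists. That cut is the peak's own fold, and at or above 9.97-fold 14 of 2030 peaks had the same pattern. The E12KO peak nearest to the 33.1-fold site was 2104 bp away, at the Maml3 start. The table of wt replicate 1 calls the site intron 4 of 4 and the other tables intron 1 of 4. Of the intronic peaks that the 2 kinds of table share, all 501 on minus-strand genes carry numbers counted from the opposite end, and all 152 on plus-strand genes carry the same number. By position the site lies in the first intron.

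The other Maml3 regions were spread over the gene. A peak over the start of the long transcript was in wt replicate 3 (51908617 to 51909279), E12KO (51908702 to 51909299) and E47KO (51908923 to 51909287), and not in wt replicates 1 and 2. An intronic site at 51592571 to 51593514 in E12KO, about 7 kb past the start of a short transcript, was in all lists but wt replicate 1, as was a site 74.5 kb upstream of the long transcript, in an exon of another transcript. Another intronic site, 96.9 kb from the long start, was in wt replicates 1 (4.95-fold) and 3 and E12KO, and not in E47KO or wt replicate 2. A site 16.1 kb into the gene was in wt replicate 3 and both knockouts. The remaining one, at 51543670 to 51544003 in wt replicate 1, had a fold of 9.97, above the list's median, and was in no other list. Among the 2030 peaks of wt replicate 1 at or above that fold, 111 (5.47%) were in no other list.

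Only wt replicate 1 carries scores, so strength could be ranked in that list alone. The 15 peaks at these genes ran from 4.95-fold to 33.1-fold with a median of 8.73, against 7.48 over all 6814 peaks, and 9 of the 15 were above the list's median. Maml3 and Rbpj, at 33.1-fold and 21.6-fold, stood well above the other 13, of which none exceeded 11.7-fold. The single peaks of Numbl and Mib1 were among the weaker peaks of the list, at percentiles 17.3 and 20.0, although both sites were in all 5 lists.

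**Figure D3:**
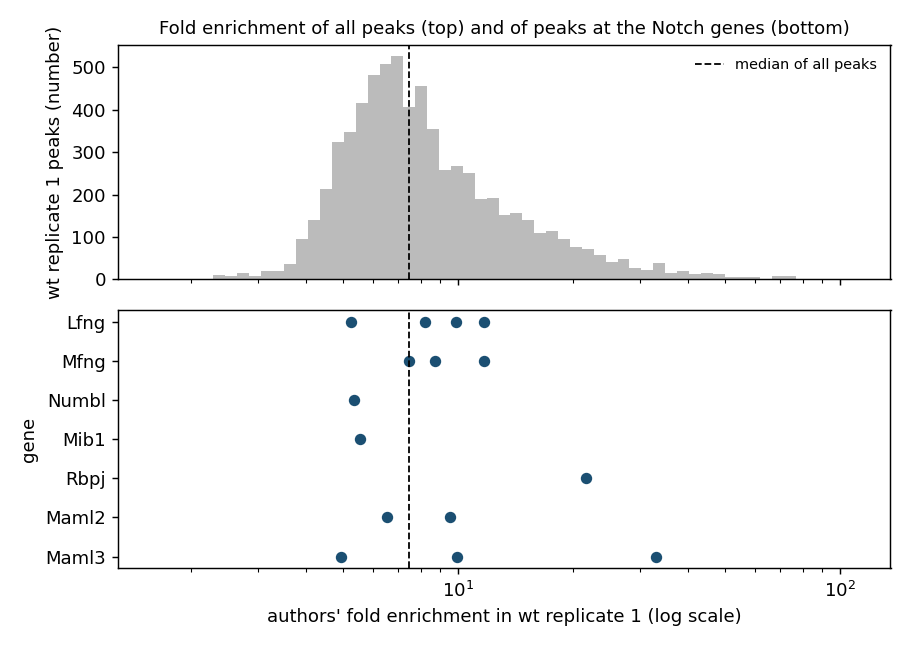
Authors' fold enrichment (log axis) of all 6814 peaks of wt replicate 1 as a histogram (top) and of the 15 peaks at the Notch genes as points by gene (bottom), with the median of all peaks as a dashed line. The Maml3 peak at 33.1-fold and the Rbpj peak at 21.6-fold lie to the right of the rest, and 9 of the 15 points lie above the median.

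The knockout libraries ask whether a site is still bound when one E2A protein is missing. At the Notch genes there were 15 wt consensus regions, of which 12 (80.0%, 95% Wilson interval 54.8 to 93.0) had a peak in E12KO and 13 (86.7%, 62.1 to 96.3) in E47KO, against 96.6% and 93.5% of all 12322 consensus regions. The intervals cover counting error only, and regions are not replicates of a genotype. Missing from E12KO were the starts of Mfng and Numb and the 33.1-fold Maml3 site. Missing from E47KO were the Mfng start and the Maml3 site at 96.9 kb. All 4 of these regions were also missing from 1 of the 3 wt lists: the Numb start from wt replicate 1, and the Mfng start and both Maml3 sites from wt replicate 2. The 8 regions in all 3 wt lists were in both knockouts. Of all 12322 consensus regions, 8094 were missing from 1 wt list. Over all genes, 99.3% of the regions shared by wt replicates 1 and 2 had a peak in E12KO and 97.9% in E47KO.

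The same lookup between wt lists gave the spread. Of the regions shared by 2 wt lists, the remaining wt list held 8 of 12 (wt replicate 1 held out), 8 of 11 (wt replicate 2) and 10 of 10 (wt replicate 3), or 79.8% ± 17.8 (SD, n = 3). For those same 3 sets E12KO held 11, 9 and 10 (91.2% ± 9.10) and E47KO held 12, 9 and 10 (93.9% ± 10.5). Each knockout SD, here and over all genes, comes from 1 library looked up in 3 overlapping sets. It reflects the choice of wt lists and does not measure a spread between knockout replicates. In each of the 3 sets both knockouts held at least as many as the held-out wt list. Over all genes the corresponding means were 71.4% ± 30.6 for the held-out wt list, 97.8% ± 1.74 for E12KO and 95.5% ± 2.68 for E47KO. The lower wt values came from wt replicates 1 and 2, whose lists are the shortest, while wt replicate 3, with a list about as long as those of the knockouts, held all 10. The part of list length was not tested.

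**Figure D4:**
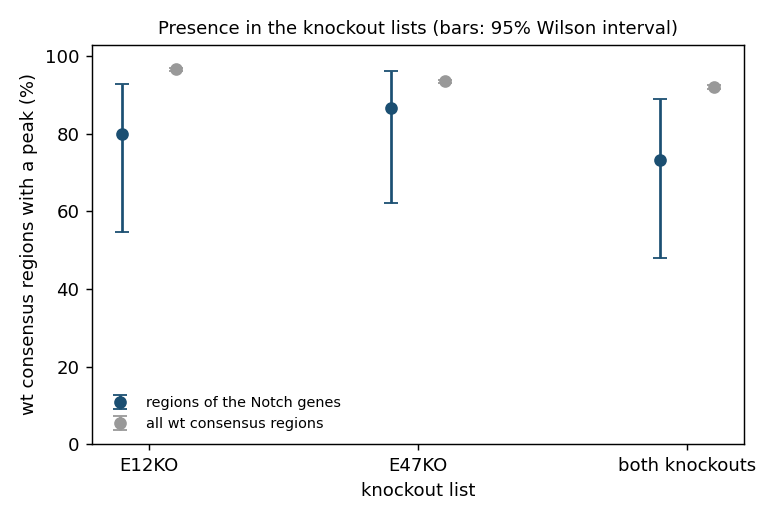
Percent of wt consensus regions with an overlapping peak in E12KO, in E47KO and in both, for the 15 regions at the Notch genes (blue) and for all 12322 regions (grey), with 95% Wilson intervals as bars. The blue points lie at 80.0%, 86.7% and 73.3%, with intervals that reach from 48.0 to 96.3 across the 3 comparisons.

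Most of the 15 consensus regions were inside or at the genes. By the authors' annotation 8 were in introns (53.3%, Wilson interval 30.1 to 75.2, against 35.1% of all consensus regions), 5 at promoters (33.3% against 22.4%), 1 in an exon and 1 intergenic (6.67% against 35.5%). The promoter label reaches 2 kb from the start in wt replicate 1 and 1 kb in the other lists. All 3 Maml2 regions were intronic. The Numbl and Numb regions were at the promoter, and the Rbpj region was the intergenic one. Long genes can collect more peaks. Summed over the 5 lists, Lfng had 182.8 peaks per 100 kb of gene, above 93.6% of protein-coding genes with a peak, and Mfng 62.6. Maml2 had 36.9, Numbl 25.7, Rbpj 11.8, Mib1 6.93, Maml3 5.03 and Numb 2.37, around a median of 18.2. Lfng, Mfng and Numbl were thus above the median per length, and Rbpj, Mib1, Maml3 and Numb below it. The 15 Lfng peaks fell in 3 merged regions, so a site repeated or split across lists counted several times. Peaks outside a gene counted too, and Lfng is only 8.2 kb long. The place of Maml2 turned with the gene model: on RefSeq lengths, an alternative chosen after seeing the data, it had 7.99 peaks per 100 kb, below the median of 15.5, and the other 7 genes kept their side.

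By the number of peaks in each list, the genes most like Maml2 were Grip1, an adaptor of glutamate receptors, and the myelin protein gene Pmp22, whose 5 numbers each differed from those of Maml2 by a sum of 1. Cbln4, the gene of a secreted synapse protein, followed as the first by name of the genes at a difference of 2, and 14 genes in all were within that difference. These similarities are over 5 lists that differ in length and carry no test.

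Other genes of the Notch pathway were counted in groups by function. Of 46 such genes outside the 10, 20 had a wt consensus region within 10 kb and 24 at any distance, beside 7 and 8 of the 10. Over all protein-coding genes the shares were 16.7% and 27.6%. Ligands had one within 10 kb at 4 of 6, with Dll1 at 26.6-fold and Dll3 at 12.2-fold. Effectors had one at 5 of 7, with Hes5 at 58.8-fold and Hes6 at 31.5-fold. Corepressors and coactivators had one at 5 of 9, with the corepressor gene Spen at 51.8-fold, and ubiquitin and trafficking genes at 4 of 9, with Neurl1a at 10.7-fold. Receptors had one at 2 of 4, with Notch1 at 10.8-fold. None of the 9 genes for the receptor-cutting proteases, nor the glycosyltransferase genes Pofut1 and Poglut1, had one within 10 kb. The groups hold only 2 to 9 genes each, and the differences between them were not tested. All 7 sites given here had a peak in both knockouts, as did 92.0% of all 12322 wt consensus regions. These sites were picked as the strongest of their groups by wt replicate 1 fold.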

How the data were processed

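E2A binding was mapped by ChIP-seq in 5 libraries. The submitters' processing notes name MACS2 2.1.0, BWA 0.7.13, Picard 1.119 and the mm9 build; how they were set is not given in the sources used here. Names of the lists give wt replicate 1 another false discovery label than the rest. Peaks were deposited per library, with position, annotated feature, nearest gene and distance to its start (bp), per the file headers. Scores at the summit, as deposited by the authors, come with wt replicate 1 alone: −log10 p and −log10 q, a fold ratio, and a pileup signal. They were used only to describe peaks in that list. Distances run to a peak's nearest edge in 4 tables and to its far edge in that of wt replicate 1, for which nearest-edge distances are given here.

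Peaks were merged where they overlapped by at least 1 bp (Python 3.11.15, pandas 2.3.3). Sharing between lists was decided by position, whatever gene a list names. A consensus region was in at least 2 of the 3 wt lists and took the feature of the wt peak nearest its middle. The overlap code was tested on simulated data. Shares have 95% Wilson intervals for counting error. Of 12140 gene identifiers in the lists, 12078 matched the RefSeq table (GRCm38.p6), used for names, gene class and order. Promoter windows were cut to the 250 bases before each start. No test between genotypes was made; each knockout has 1 library.

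Named were all 10 genes, their regions in 2 or more lists, consensus regions missing from a knockout, up to 2 strongest other pathway genes per group, and the 3 genes nearest to the most-bound gene in peak number. A gene that this rule names is not reported here. Single-list regions were added after their values were seen. Members and lists were chosen with earlier results of these data known. Alternatives were leaving out each wt list, requiring all 3, 50% overlap, a 500 bp gap, a −log10 q of 5, a 280 bp width, the same symbol, windows of 5 and 50 kb and, added after seeing the data, RefSeq gene lengths.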

Additional observations from a re-analysis of the deposited data

How the results depend on the processing

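Overlap of 50% and merging across gaps of 500 bp moved none of the results they were applied to beyond the limits set for them. A stricter threshold in wt replicate 1 and requiring the same gene symbol could change nothing here. The lowest −log10 q of the 15 peaks of that list was 5.55, above the threshold of 5, and no peak in the merged regions named another gene. Leaving out single wt lists gave 4 to 7 genes with a consensus region within 10 kb, 10 to 12 consensus regions, 81.8% to 100% of them in E12KO and 81.8% to 100% in E47KO. The lowest gene count, 4, and 100% in both knockouts came without wt replicate 3, and 100% in E47KO also without wt replicate 1. With 1 list left out, both others had to hold the region, which leaves fewer regions. Requiring all 3 wt lists left 4 genes within 10 kb and 8 regions, 100% of them in E12KO and 100% in E47KO. The median pileup of the 15 peaks was 26 (24 over the list) and their median −log10 q 15.8 (13.5 over the list). Without peaks under 280 bp, 7 genes had a consensus region at any distance and 6 within 10 kb. No paired analysis was possible because each knockout has 1 library with no replicate number. Peak lists give no depth, so a missing peak may be a site under a list's threshold, and the thresholds of 4 lists could not be checked.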
